A study of Mus musculus with 24 samples.

Results

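Cyclophilins are a family of peptidyl-prolyl isomerases, and 10 of them, among 24537 genes in the deposited count table, were followed across all 24 RNA-seq libraries: Ppia, Ppib, Ppic, Ppid, Ppif, Ppig, Ppih, Ppil1, Ppil2 and Ppil4. They were chosen by symbol, and the choice rested on measured values. Ppia rose strongly in Cre+ EDL muscles at 2.5 days, while the other members hardly moved. The values of EDL muscles at 2.5 days are therefore given as a description without a test. All 10 passed the filter on low counts, and each was counted in every library.

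The mice were 2 months old and all carried a doxycycline-responsive OSKM cassette (Oct4, Sox2, Klf4 and c-Myc, called 4F) in Col1a1 and an rtTA transactivator behind a LoxP-STOP-LoxP block in Rosa26, each in the heterozygous state. Cre+ mice (Acta1-Cre+/4Fhet) also carried Cre under the Acta1 promoter, which is active in myofibers, whereas Cre- mice (Acta1-Cre-/4Fhet) lacked Cre. Both genotypes received Dox, at 1 mg/ml in their water, so that the controls were treated as well, and muscles were compared after 2.5, 5.5 and 8.5 days. The fast extensor digitorum longus (EDL) and the slow soleus (SOL) were taken whole, with 2 libraries for each muscle, genotype and time point. In whole muscle, fewer cells of a type and less RNA per cell cannot be told apart.

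Total counts lay between 36088781 and 54679082 per library. The summed level of 7 slow fibre markers was at least 30606 FPKM (reads per kilobase of exon, scaled to the total count of the library) in every SOL library and at most 1521 FPKM in every EDL library, so the muscles carried their labels. Pou5f1, the Oct4 gene of the cassette, was at most 0.0896 FPKM in Cre- libraries and between 5.02 and 76.2 FPKM in the Cre+ libraries of 2.5 and 8.5 days. At 5.5 days it was 1.02 and 27.7 FPKM in Cre+ EDL muscles and 0.0785 and 0.387 FPKM in Cre+ SOL muscles, and the study left this time point out. The summed level of 7 liver transcripts was 20.1 and 103 FPKM in Cre- SOL muscles of 8.5 days and at most 7.02 FPKM in all other libraries.

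Cyclophilins share a conserved domain, which in the active members turns the peptide bond before a proline between cis and trans, a slow step in protein folding. In cyclophilin A and several others the drug cyclosporin A binds in the active site. Cyclophilin A (Ppia) is the abundant cytosolic form, whose complex with cyclosporin inhibits the phosphatase calcineurin and which can be secreted and bind basigin on other cells. Ppib and Ppic act in the secretory pathway, where Ppib forms part of the collagen prolyl 3-hydroxylase complex. Ppid is an Hsp90 co-chaperone, and Ppif is the mitochondrial matrix form that makes the permeability transition pore easier to open. Ppig, Ppih, Ppil1, Ppil2 and Ppil4 are nuclear, and Ppih and Ppil1 are part of the spliceosome. Ppia is also in wide use as a reference gene in real-time PCR.

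The 10 genes lie on 10 different chromosomes. In GRCm38 coordinates Ppia is at chr11:6415870-6419810 on the plus strand with 729 exonic bases, the shortest gene model of the 10, and Ppif is at chr14:25694170-25700466 with 1539. The exons of Ppib (chr9:66060169-66066629), Ppif and Ppil2 (chr16:17086556-17111252) overlap those of Snx22, Ppifos and Ypel1, and it is not stated whether strand was used in counting. The 250 bases before the start of transcription are shown for Ppia and Ppif, the members that passed the test at 8.5 days, from RefSeq on GRCm38.p6, with GC boxes (GGGCGG, either strand) in capitals. The first is chr11:6415617-6415866 and the second chr14:25693920-25694169, both on the plus strand.
Ppia: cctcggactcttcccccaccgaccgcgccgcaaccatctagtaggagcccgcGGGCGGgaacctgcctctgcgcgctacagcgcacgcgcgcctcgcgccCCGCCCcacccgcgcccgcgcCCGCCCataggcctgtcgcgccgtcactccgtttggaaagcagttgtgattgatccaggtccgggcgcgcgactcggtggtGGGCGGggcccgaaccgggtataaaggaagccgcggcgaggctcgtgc
Ppif: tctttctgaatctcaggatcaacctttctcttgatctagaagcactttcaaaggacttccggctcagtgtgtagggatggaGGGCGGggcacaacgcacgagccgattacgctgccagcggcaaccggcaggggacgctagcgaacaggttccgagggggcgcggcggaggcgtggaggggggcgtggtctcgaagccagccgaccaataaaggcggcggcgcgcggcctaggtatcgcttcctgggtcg
The Ppia window held 4 GC boxes and the Ppif window 1. Neither held the E-box CACGTG, the octamer core ATGCAAA or the SOX core ACAAAG on either strand. Windows of this kind were at hand for 7 of the 10 members, with 2 GC boxes in Ppib and Ppil1, 1 in Ppig and Ppih and 0 in Ppil2, and with an ACAAAG in Ppih and Ppil2. Over 32851 windows of the same length, 32.7% held a GC box, 6.02% CACGTG, 4.12% ATGCAAA and 16.5% ACAAAG. These letter matches are a description and do not show binding.

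Much of the Ppia transcript is also present elsewhere in the genome, which bears on what a count of uniquely aligned reads can see. Of 697 different windows of 50 bases along the annotated Ppia transcripts, 12.6% were found in no other annotated gene, and 38 other genes, 35 of them pseudogenes, held at least 1 of the windows. For Ppih, 17.8% of windows were its own, for Ppib 46.6%, for Ppid 68.8% and for Ppil2 77.1%, while Ppic, Ppil1 and Ppil4 shared none and Ppif and Ppig had 95.9% and 94.5% of their own. The count includes genes that overlap a member in place: Ppib shared 420 windows with Snx22, Ppil2 359 with Ypel1 and Ppif 62 with Ppifos. Such windows need not be copies elsewhere in the genome. Reads from shared stretches were not counted if they aligned to several places, so the levels per length of Ppia and Ppih come from the rest of their sequence, and the effect of this on the levels was not tested. E030024N20Rik, a processed pseudogene sharing 149 windows with Ppia and listed in the table, had between 0 and 4 counts per library, against at least 2675 for Ppia. Gclm, which shares 206 windows with Ppia through 1 annotated transcript, had 729 and 885 counts in Cre+ EDL muscles of 2.5 days and 378 and 487 in Cre- muscles. Ypel1, which overlaps Ppil2, had 141 and 92 counts in the same Cre+ muscles and 12 and 22 in the Cre- muscles.

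Ppia was the most abundant of the 10 in all 24 libraries. Over the 12 Cre- libraries its level ranged from 84.9 to 124 FPKM with a median of 109, a ratio of highest to lowest of 1.46. Ppib was always the next, with a median of 57.5 FPKM, ahead of Ppic, Ppif and Ppid with 32.4, 32.4 and 22.7 FPKM. The spliceosomal and other nuclear members lay lower, from 17.6 FPKM for Ppil2 to 5.21 FPKM for Ppih. The spread among Cre- libraries was widest for Ppic, from 15.4 to 45.4 FPKM, where the 4 libraries of 5.5 days were the lowest.

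In Cre+ EDL muscles of 2.5 days, Ppia stood at 775 and 1414 FPKM, against 124 and 107 FPKM in the matching Cre- muscles. The fitted log2 fold change was 2.90, or 7.47-fold, and these are the values that chose the members. No other group reached this level: the next, Cre+ EDL of 8.5 days, was at 271 and 186 FPKM. It was 3.24 without Cre+ replicate 1 and 2.46 without Cre+ replicate 2. Of the 15372 genes tested, 313 had a larger fitted fold change in EDL at 2.5 days, and of the 1481 genes at 100 CPM (counts scaled to library size) or more in those Cre+ libraries, 26 did.

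**Figure D1:**
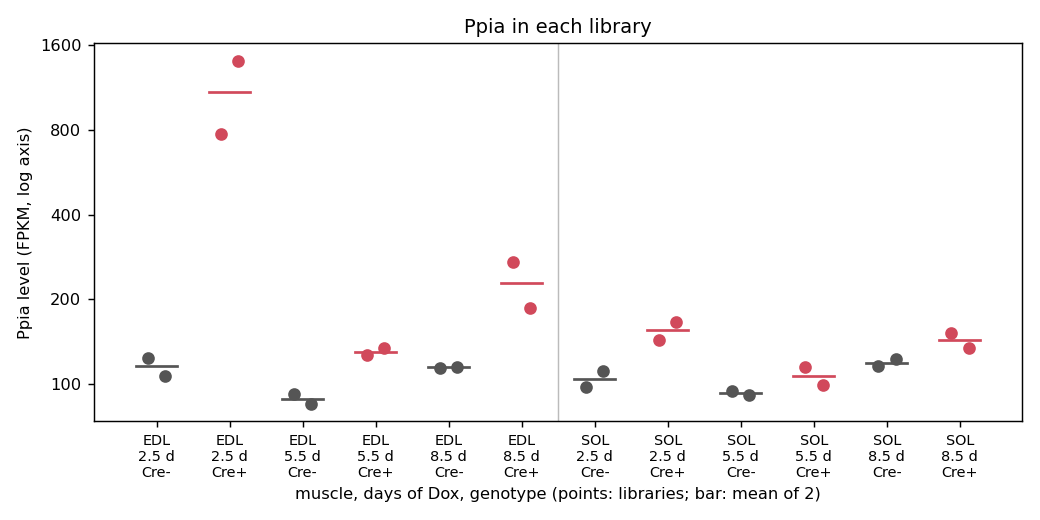
Level of Ppia in FPKM (log axis) in each of the 24 libraries, by muscle, days of Dox and genotype, with points for libraries and a bar for the mean of 2. The Cre+ libraries of EDL at 2.5 days lie at 775 and 1414 FPKM, those of EDL at 8.5 days at 271 and 186 FPKM, and all Cre- libraries between 84.9 and 124 FPKM.

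In the order of the mean level of Ppia, Cre+ EDL at 2.5 days (1094 ± 452 FPKM, SD, n = 2) came before Cre+ EDL at 8.5 days (229 ± 60.0) and Cre+ SOL at 2.5 days (155 ± 16.4), with no overlap between neighbours. Cre+ SOL at 2.5 days overlapped with Cre+ SOL at 8.5 days (143 ± 12.9), which lay above Cre+ EDL at 5.5 days (130 ± 5.37). From Cre- SOL at 8.5 days (119 ± 4.84) down to Cre- SOL at 2.5 days (104 ± 9.72) each group overlapped with the next, through Cre- EDL at 2.5 days (116 ± 11.9), Cre- EDL at 8.5 days (115 ± 0.961) and Cre+ SOL at 5.5 days (107 ± 10.6). The lowest were Cre- SOL and Cre- EDL at 5.5 days (93.3 ± 2.27 and 88.5 ± 4.97). Of the Cre+ groups, SOL at 5.5 days alone fell among the Cre- groups.

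The other 9 members showed much smaller differences in the same libraries, which restates the choice. Ppil1, a spliceosomal cyclophilin, was nearest with a fitted log2 fold change of 0.84, from 8.02 and 17.6 FPKM in Cre+ against 4.49 and 6.67 FPKM in Cre- muscles. The higher value was that of Cre+ replicate 2, the library with the highest Ppia. The remaining 8 were between -0.31 (Ppif) and 0.25 (Ppid) on the log2 scale. Among all genes tested, 13.8% were called higher in Cre+ in this contrast, that is with an adjusted p below 0.05 and a log2 fold change above 0.5, and nothing is read from it about the members. The summed level of 8 fast fibre markers was 62514 and 78125 FPKM in these Cre+ muscles against 89895 and 95969 FPKM in Cre- muscles, and its part in the difference was not tested.

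At 8.5 days of Dox, 2 of the 10 members passed the thresholds in EDL muscles, where 14.1% of all genes tested did (7.63% upward and 6.5% downward). Ppia rose and Ppif, the mitochondrial member, fell, while the other 8 did not pass. Ppia was at 271 and 186 FPKM in Cre+ and at 114 and 115 FPKM in Cre- muscles. Both Cre+ libraries thus lay above both Cre- libraries, which were nearly equal, while the Cre+ libraries differed from each other. The log2 fold change was 0.81 ± 0.21 (SE, adjusted p = 0.0211). It was 0.57 with an adjusted p of 0.216 without Cre+ replicate 1, and the call was also lost without Cre- replicate 1 (adjusted p = 0.109) and without Cre- replicate 2 (adjusted p = 0.0572), but not without Cre+ replicate 2 (1.01, adjusted p = 0.0190).

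Ppif was at 22.9 and 24.5 FPKM in Cre+ and at 30.8 and 34.9 FPKM in Cre- EDL muscles of 8.5 days. The groups did not overlap, in the opposite direction to Ppia, as was so for 15.5% of all genes. The log2 fold change was -0.65 ± 0.16 (SE, adjusted p = 0.0181), and it was -0.55 (adjusted p = 0.168) without Cre+ replicate 1 and -0.54 (adjusted p = 0.0766) without Cre- replicate 2. Scaling by library size alone gave -0.47 with an adjusted p of 0.0804. Among the members that did not pass, Ppil2 had 0.29 ± 0.12 (SE, adjusted p = 0.106), Ppid 0.24 ± 0.14 (SE, adjusted p = 0.291) and Ppil4 -0.32 ± 0.17 (SE, adjusted p = 0.236). Ppib and Ppic, the secretory forms, were at 0.12 and 0.02.

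Marker lists of other cells and of fibres were read in the same EDL muscles of 8.5 days. The summed level of 11 macrophage and monocyte markers was 166 to 228 FPKM in Cre+ against 144 to 150 FPKM in Cre- muscles, with a median fitted log2 fold change of 0.15. That of 6 fibroblast markers was 1334 to 1764 against 1099 to 1135 FPKM (median 0.08), and that of 5 satellite cell markers 22.8 to 24.3 against 18.9 to 20.2 FPKM (median -0.07). No gene of these lists or of the endothelial, erythroid and dividing cell lists was called by edgeR or DESeq2, and 1, a satellite cell gene, had an unadjusted p under 0.05. Among all genes tested, 4588 of 15372 had such a p. Of 8 fast fibre markers 2 fell, with a sum of 72471 to 83451 against 84758 to 90749 FPKM. Of 7 slow fibre markers 0 were called (median -0.48), with a sum of 756 to 766 FPKM in Cre+ muscles. In the Cre- muscles that sum differed widely, from 314 to 1521 FPKM. Of 7 liver transcripts 4 fell, with a sum of 0.834 to 1.11 against 6.75 to 7.02 FPKM. The part of these in the values of Ppia and Ppif was not tested.

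No member passed in the other 4 tested comparisons of genotype, with edgeR or with DESeq2. The background was 0.384% of genes in SOL at 2.5 days, 0.631% in SOL at 8.5 days, 0.304% in EDL at 5.5 days and 0.0% in SOL at 5.5 days, where 597 genes had an unadjusted p under 0.05. There DESeq2 called 0 genes when fitted to all libraries and 34 when fitted to the 4 of that comparison, none of them a member. At an unadjusted p under 0.05 the count of members was 0 in each of the SOL comparisons and 1, Ppia, in EDL at 5.5 days. Among all genes tested it was 2053 of 15372 in SOL at 2.5 days, 1015 of 15372 in SOL at 8.5 days and 1307 of 15478 in EDL at 5.5 days.

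In SOL muscles of 2.5 days Ppia was at 144 and 167 FPKM in Cre+ and at 97.3 and 111 FPKM in Cre- mice, with a log2 fold change of 0.43 ± 0.21 (SE, adjusted p = 0.410). In SOL muscles of 8.5 days it was at 153 and 134 against 116 and 123 FPKM, with 0.23 ± 0.21 (SE, adjusted p = 0.973). All 7 liver transcripts fell in that comparison, and their part in the values was not tested. In EDL muscles of 5.5 days it was at 127 and 134 against 92.0 and 84.9 FPKM, with 0.42 ± 0.19 (SE, adjusted p = 0.555). The groups did not overlap in any of these, but the differences were not beyond the spread by the test. In SOL muscles of 5.5 days, with almost no Pou5f1, Ppia was at 115 and 99.5 against 94.9 and 91.7 FPKM, with 0.14 ± 0.19 (SE, adjusted p = 1).

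Both Cre+ libraries of Ppia were thus above both Cre- libraries in all 6 comparisons, and this also held with FPKM by TMM-scaled library size. Of these, EDL at 2.5 days chose the members, and SOL at 2.5 days is not taken as independent of that choice. The share of all genes above in all 6 at once was not counted, so nothing is read from this about Ppia. Non-overlap upward was common: it was seen in 40.2% of all genes in EDL at 8.5 days, 34.8% in EDL at 5.5 days, 43.7% in SOL at 2.5 days, 26.5% in SOL at 5.5 days and 21.3% in SOL at 8.5 days, and in 51.9% in EDL at 2.5 days. Of the members, 6, 6, 6, 5, 1 and 9 did so in the same order. These levels are scaled by total count, under which the median of all genes was higher in Cre+ than under TMM scaling. With TMM-scaled library sizes, the members that did so beside Ppia were Ppil2 in EDL at 2.5 days, Ppib at 5.5 days and Ppid, Ppil1 and Ppil2 at 8.5 days. In SOL they were Ppid and Ppil4 at 2.5 days, Ppic, Ppid, Ppif and Ppig at 5.5 days and Ppil1 and Ppil2 at 8.5 days. Downward it was Ppif, Ppig, Ppih and Ppil4 in EDL at 8.5 days, and Ppif, Ppig or Ppil2 in each other comparison but EDL at 2.5 days. The share of all genes was not counted under this scaling, so nothing is read from these lists about the members.

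**Figure D2:**
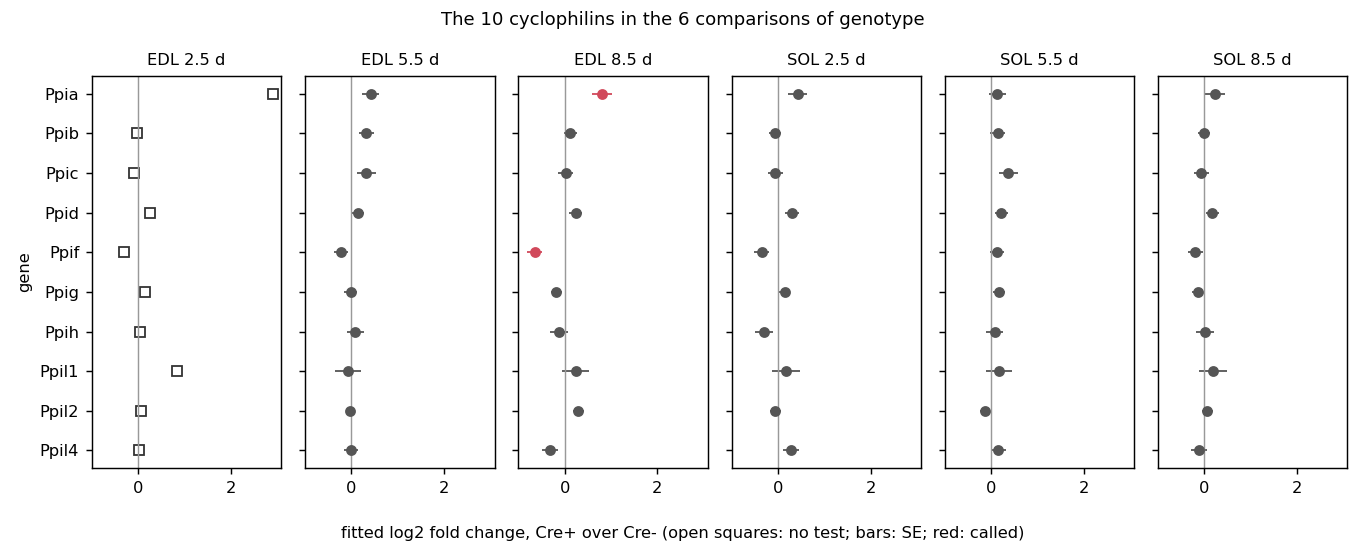
Fitted log2 fold changes, Cre+ over Cre-, of the 10 members in each muscle and time point, with bars for the SE and red for members that passed the thresholds. Open squares in EDL at 2.5 days carry no test, since those values chose the members. Ppia reaches 2.90 in EDL at 2.5 days and 0.81 in EDL at 8.5 days, where Ppif is at -0.65.

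To set Ppia against its own family within each library, its level was divided by the summed level of the other 9 members, which cancels the scaling between libraries. Ppia made up 34.0 to 40.0% of the summed level of the 10 members in Cre- EDL muscles, and 33.3 to 39.1% in Cre- SOL muscles. It made up 77.3 and 83.9% in Cre+ EDL muscles of 2.5 days, and the summed level of the 10 was then 1002 FPKM in replicate 1, of which the other 9 members held 227 FPKM. At 8.5 days the share was 54.6 and 46.4% in Cre+ EDL muscles against 37.8 and 36.5% in Cre- EDL muscles.

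In SOL muscles the share differed less. It was 38.6 and 44.3% against 34.5 and 33.3% at 2.5 days, and 41.8 and 38.8% against 36.1 and 36.2% at 8.5 days. At 5.5 days it was 40.8 and 46.1% against 39.7 and 36.7% in EDL muscles and 38.2 and 38.8% against 39.1 and 38.1% in SOL muscles, where the genotypes overlapped. Outside that group the Cre+ libraries were above the Cre- libraries of the same muscle and day.

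Over the 12 libraries of EDL at 8.5 days and SOL at 2.5 and 8.5 days, whose values the choice of members did not use, the log2 ratio of Ppia to the other 9 members was higher in Cre+ by 0.50 on average, or 1.42-fold (two-sided exact permutation within muscle and day, p = 0.00926, the smallest that 216 permutations allow). The difference was 0.79 in EDL at 8.5 days, 0.47 in SOL at 2.5 days and 0.25 in SOL at 8.5 days. The SOL muscles of 2.5 days may come from the same mice as the EDL muscles that chose the members, since libraries of equal number pair. The labels do not name the mouse, and these SOL muscles are not taken as independent of that choice. The p over the 12 libraries includes them and is therefore not independent of it either. With the 8 libraries of 8.5 days alone, added after seeing the data, the average was 0.52 and the exact permutation p was 0.0556, the smallest that 36 permutations allow. If EDL and SOL libraries of equal number were moved together as 1 mouse, the exact permutation p was 0.0556, the smallest that 36 permutations allow, so that this design could not pass 0.05. With the libraries of 5.5 days added, the average was 0.36 and the exact permutation p was 0.00103 over 20 libraries, with a positive difference in 4 of 5 muscle and time point pairs. That p treats EDL and SOL libraries of equal number as independent. With them moved together, also added after seeing the data, the exact permutation p was 0.00926, the smallest that 216 permutations allow. Both p values with the libraries of 5.5 days also include the SOL muscles of 2.5 days, so neither is taken as independent of the choice of members.

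**Figure D3:**
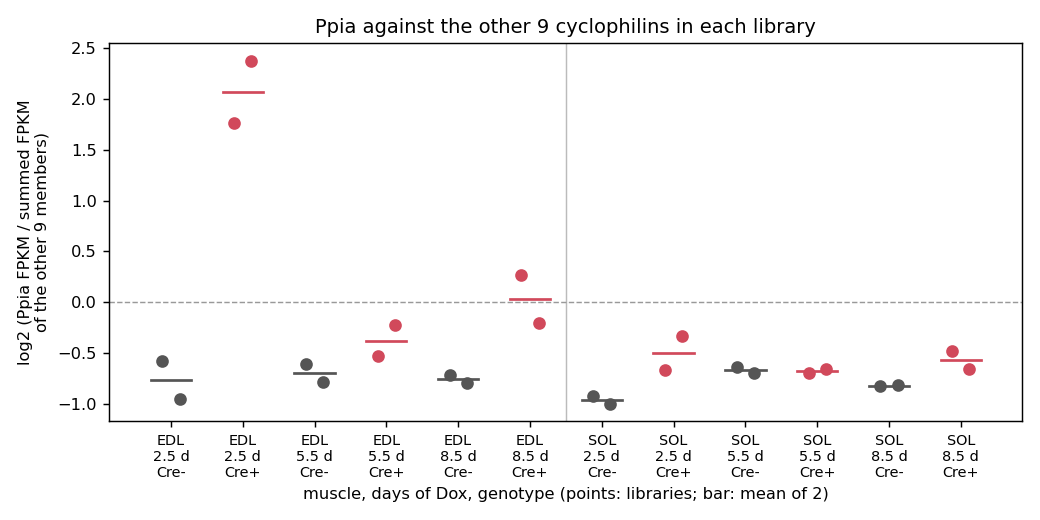
Log2 ratio of the Ppia level to the summed level of the other 9 cyclophilins in each of the 24 libraries, with points for libraries and a bar for the mean of 2. The dashed line marks a ratio of 1. Cre- groups average between -0.96 and -0.67, and the Cre+ groups of EDL average 2.07 at 2.5 days and 0.03 at 8.5 days.

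Whether the muscles differed was asked at 8.5 days. In Cre- mice Ppia did not differ between EDL and SOL beyond the spread (log2 difference 0.03 ± 0.21 SE, adjusted p = 0.943). In Cre+ mice it was higher in EDL by 0.61 ± 0.21 (SE, adjusted p = 0.0581). With EDL and SOL libraries of equal number taken as a mouse and used as a block, it was higher by 0.59 (adjusted p = 0.0216). The genotype difference itself was larger in EDL than in SOL by 0.58 ± 0.30 (SE, adjusted p = 0.513), so a difference between muscles in the response of Ppia was not shown. No member passed in this test with edgeR or DESeq2, 0 had an unadjusted p under 0.05, and 0.592% of all genes passed. Of the 15372 genes tested, 1729 had an unadjusted p under 0.05.

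Ppid, the Hsp90 co-chaperone, passed between muscles in the fit without the mouse as a block, and Ppid and Ppia both passed with it. In Cre+ mice of 8.5 days it was at 35.0 and 35.9 FPKM in EDL and at 25.3 and 22.7 FPKM in SOL muscles, a log2 difference of 0.50 ± 0.14 (SE, adjusted p = 0.0237), where 18.2% of all genes passed. The value sat at the fold limit, and it was 0.43 without EDL replicate 2 (adjusted p = 0.143), 0.46 without SOL replicate 2 (adjusted p = 0.138), 0.55 without SOL replicate 1 (adjusted p = 0.0832) and 0.58 without EDL replicate 1 (adjusted p = 0.0536). In Cre- mice the levels were 25.3 and 27.8 FPKM in EDL and 18.1 and 23.7 FPKM in SOL muscles, a difference of 0.44 ± 0.14 (SE, adjusted p = 0.0466) that lay under the fold limit. No member passed in Cre- mice with edgeR or DESeq2, and 1 had an unadjusted p under 0.05, while 18.2% of all genes passed. Of the 15372 genes tested, 5214 had an unadjusted p under 0.05.

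The level of Ppia did not follow the level of the OSKM cassette in a fixed order. In Cre+ EDL muscles Pou5f1 was at 17.5 and 70.5 FPKM at 2.5 days beside 775 and 1414 FPKM of Ppia. At 8.5 days it was at 76.2 and 57.7 FPKM beside 271 and 186 FPKM of Ppia. At 5.5 days replicate 2 had 27.7 FPKM of Pou5f1 and 134 FPKM of Ppia, while replicate 1 had 1.02 FPKM and 127 FPKM. Replicate 2 of 5.5 days was thus above replicate 1 of 2.5 days in Pou5f1, and below it in Ppia.

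Within a muscle and day, the Cre+ library with more Pou5f1 also had more Ppia in EDL at 2.5, 5.5 and 8.5 days and in SOL at 2.5 and 8.5 days, but not in SOL at 5.5 days. In Cre+ SOL muscles Pou5f1 was at 5.02 and 9.62 FPKM at 2.5 days and at 12.2 and 6.19 FPKM at 8.5 days. Within each day, Sox2, Klf4 and Myc were higher in the same Cre+ EDL library as Pou5f1, with Myc at 25.4 and 99.4 FPKM at 2.5 days and at 87.1 and 77.2 FPKM at 8.5 days. Counts do not separate cassette transcripts of these genes from those of the mouse genes.

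**Figure D4:**
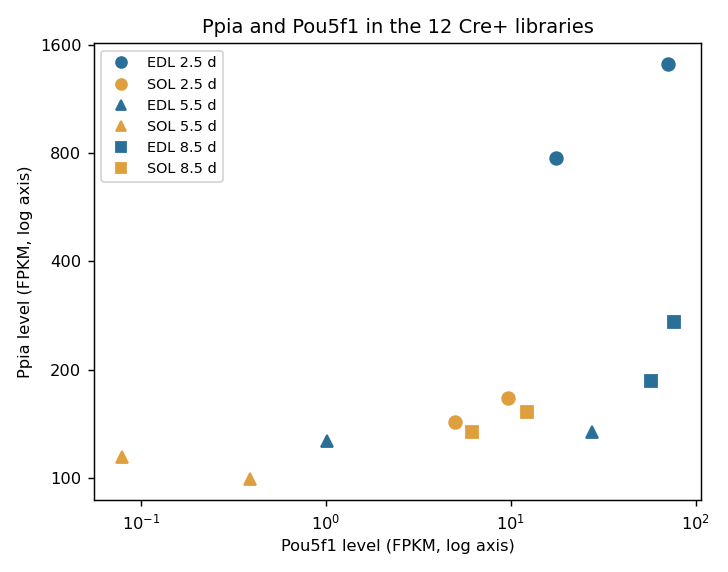
Level of Ppia against that of Pou5f1, both in FPKM on log axes, in the 12 Cre+ libraries, with color for the muscle and shape for the days of Dox. The EDL libraries of 2.5 days (775 and 1414 FPKM of Ppia) lie above those of 8.5 days (271 and 186 FPKM), although their Pou5f1 levels overlap.

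The genes whose pattern over the 24 libraries was most like that of Ppia, by Pearson's r on log2 CPM among 12654 genes, were Gm2a (0.980), Ahsa2 (0.976), Cbr3 (0.963), Hmgxb4 (0.955) and Lin37 (0.954). The genes share the libraries and their depth, and these values are a description, in which the EDL libraries of 2.5 days carry much of the range. Gm2a, which encodes a lysosomal activator protein, was at 43.8 and 166 FPKM in Cre+ EDL muscles of 2.5 days against 5.36 and 5.15 FPKM in Cre- muscles. Cbr3, a carbonyl reductase, was at 18.7 and 96.0 against 2.08 and 1.72 FPKM. By Spearman's rho the 5 highest were Gng12, Arfip1, Slc25a24, Grk6 and Sgms2, and Gm2a was at place 30. Ahsa2 was at place 86, Cbr3 at 145, Hmgxb4 at 1622 and Lin37 at 1745.

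The other members were chosen for moving little in the EDL libraries of 2.5 days, so their place in this ranking restates the choice. Pearson's r was highest for Ppil1 (0.584) and Ppid (0.475), lay between 0.063 and 0.370 for Ppig, Ppih, Ppil4, Ppib, Ppic and Ppil2, and was -0.356 for Ppif. By this measure Ppil1, the nearest member, was at place 1693 of the 12654 genes. By Spearman's rho Ppid was nearest (0.650), at place 804.

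Other prolyl isomerases were examined in EDL muscles of 8.5 days, where all genes tested had a median of -0.02 in log2 fold change. Of all genes tested there, 7.63% rose and 6.5% fell, and 4588 of 15372 had an unadjusted p under 0.05. Of the 7 other cyclophilins tested, 0 passed, with a median of -0.24, 3 with an unadjusted p under 0.05 and 0 called by DESeq2. Ppil6 (0.34) and Ppie (0.10) were highest and Ranbp2 (-0.58) and Ppwd1 (-0.48) lowest. Of 15 FK506-binding proteins, the other immunophilin family, 2 rose and 0 fell, with a median of 0.10. Fkbp7, in the endoplasmic reticulum, rose from 15.6 and 17.9 FPKM in Cre- to 32.5 and 34.9 FPKM in Cre+ muscles (0.83, adjusted p = 0.00203), and Fkbp9 rose as well (0.65). Fkbp5 (0.87) did not pass, and Fkbp1a (-0.20) and Fkbp11 (-0.17) were lowest. The parvulin Pin4 (-0.17) and the phosphatase activator Ptpa (0.04) did not pass.

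Partners of Ppia moved in both directions in the same muscles, where 7.63% of all genes tested rose and 6.5% fell. Of 5 genes of the receptor and partner list, 1 rose and 1 fell, with a median of -0.21. Bsg, the cell surface receptor of secreted cyclophilin A and chaperone of lactate transporters, fell from 420 and 451 to 245 and 267 FPKM (-0.95, adjusted p = 0.00258), opposite to Ppia. Pdcd6ip, an adaptor of the endosomal sorting machinery, rose (0.70, adjusted p = 0.00835), and the lactate transporters Slc16a3 (-0.75) and Slc16a1 (-0.17) did not pass. Of 13 calcineurin and NFAT genes, 3 rose and 0 fell, with a median of -0.05. Ppp3ca, a catalytic subunit of calcineurin, rose from 51.2 and 52.7 to 107 and 107 FPKM (0.86, adjusted p = 3.94e-04), and the calcineurin regulators Rcan3 (1.42, adjusted p = 5.84e-04) and Rcan1 (0.60) rose as well. Nfat5 (-0.55) and Ppp3cb (-0.37) were lowest and did not pass.

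Partners of Ppib and Ppif were read in the same muscles, against the same 7.63% of all genes that rose and 6.5% that fell. Of 11 genes of the collagen 3-hydroxylase complex and the endoplasmic reticulum chaperones, 5 rose and 0 fell, with a median of 0.51, while Ppib was at 0.12. Canx, a lectin chaperone, rose from 25.5 and 28.5 to 53.1 and 53.4 FPKM (0.80, adjusted p = 0.00410). Pdia4, a disulfide isomerase, rose (0.70, adjusted p = 0.0359), while P3h3 (0.29) and Serpinh1 (0.30) were lowest and did not pass. Of 11 genes of the permeability transition list, 6 fell and 1 rose, with a median of -0.61, in the direction of Ppif. Vdac3, an outer membrane channel, fell from 204 and 239 to 113 and 144 FPKM (-0.95, adjusted p = 0.00116), and Slc25a4, the muscle adenine nucleotide carrier, fell from 3509 and 4507 to 2029 and 2676 FPKM (-0.94, adjusted p = 0.00715). Tspo, an outer membrane protein, rose from 17.8 and 23.9 to 125 and 147 FPKM (2.52, adjusted p = 5.44e-05), and Slc25a5 (0.47), the carrier isoform of other tissues, did not pass.

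Of 9 Hsp90 cycle genes, the partners of Ppid, 1 rose and 0 fell, with a median of 0.06. It was Hsp90ab1, the constitutive cytosolic Hsp90, which rose from 288 and 486 to 673 and 811 FPKM (0.75, adjusted p = 0.0345). Hspa8 (0.55), Cdc37 (-0.29) and Hsp90aa1 (-0.00494) did not pass. Of 14 spliceosome genes 0 passed, with a median of 0.02, 1 with an unadjusted p under 0.05 and 0 called by DESeq2. Among all genes tested, 4588 of 15372 had an unadjusted p under 0.05. Eftud2 (0.50) and Xab2 (0.11) were highest and Prpf4 (-0.23) and Prpf19 (-0.16) lowest. Ppih, Ppil1, Ppil2, Ppig and Ppil4 did not pass either.

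Because Ppia is used as a reference gene, 20 other genes in such use were set beside it. In EDL muscles of 8.5 days, 4 rose, 3 fell and 13 did not pass, with a median of 0.14, where 7.63% of all genes rose and 6.5% fell. Eef1a1, a translation elongation factor, rose from 266 and 357 to 801 and 1283 FPKM (1.55, adjusted p = 0.00221) and Ywhaz, a 14-3-3 protein, rose (1.11, adjusted p = 0.0414). The transferrin receptor Tfrc fell from 41.3 and 92.0 to 11.2 and 20.6 FPKM (-2.23, adjusted p = 0.00768), and the glycolytic Pgk1 fell (-0.71, adjusted p = 0.0245). Gapdh did not pass (0.02) and was at 2788 and 2950 FPKM in Cre+ and at 2267 and 2717 FPKM in Cre- muscles. Of these genes, Gapdh, Rps18, Pgk1 and Eef1a1 also had under 40% of windows of their own, from 17.4 to 39.4%.

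**Figure D5:**
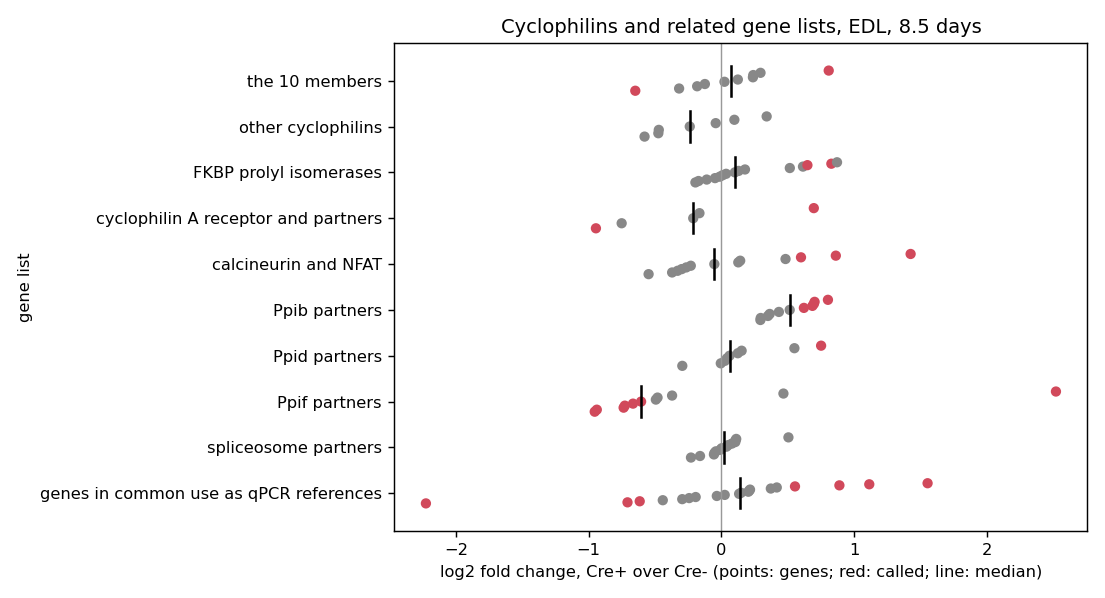
Fitted log2 fold changes, Cre+ over Cre-, in EDL muscles of 8.5 days for the 10 members and for the related gene lists, with a point for each gene, red for genes that passed the thresholds and a black line for the median. Ppia at 0.81 and Ppif at -0.65 stand at the ends of the members, and the median is 0.51 for partners of Ppib and -0.61 for partners of Ppif.

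In SOL muscles and at 5.5 days edgeR called 0 of the 105 genes of these lists, with the parvulin list left out of this count. At an unadjusted p under 0.05 the count was 17 in SOL at 2.5 days, 5 in SOL at 8.5 days, 17 in EDL at 5.5 days and 2 in SOL at 5.5 days. Among all genes tested it was 2053 of 15372, 1015 of 15372, 1307 of 15478 and 597 of 15478 in the same order. DESeq2 on the same libraries called Rcan3 and Bsg in SOL at 2.5 days, Rcan3 and Tspo in SOL at 8.5 days, Fkbp7, Hk2 and Tspo in EDL at 5.5 days and 0 in SOL at 5.5 days. In EDL muscles of 2.5 days, given without a test because the members were chosen there, the log2 fold changes of reference genes ran from -1.63 to 2.09. Ppia at 2.90 was above all 20 of them, which restates the choice. In EDL muscles of 8.5 days the highest of the 20 was at 1.55, above Ppia at 0.81.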

How the data were processed

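Per the labels and the study's methods, stranded single-end mRNA-seq reads were aligned by the authors with STAR (v2.5.3a; mm10). The deposited values are raw counts per gene of reads uniquely aligned to RefSeq exons, made with HOMER and not normalized. Read length was not given in the sources used here. FPKM values were computed here as count per kilobase of exon, scaled to the total count of the library. A count of 0 allows up to 3 counts, or 0.0549 to 0.0831 CPM, which covers counting error only.

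Fold changes were tested with edgeR 4.0.16 (TMM, quasi-likelihood, minimum count 10, Benjamini-Hochberg over all genes) in R 4.3.3. One fit of 8 groups held 2.5 and 8.5 days (15372 genes), and 5.5 days was tested in a fit of all 24 libraries (15478 genes). A gene was called where the adjusted p was below 0.05 and the log2 fold change above 0.5 or below -0.5. DESeq2 1.42.0, other scalings, filters, library sets, replicate blocks and leaving out each library were alternatives. Sharing of 50-base windows was counted over GENCODE M21 transcripts. Members and lists were chosen with earlier results of these data known. Named genes were the 10 members, the 2 highest and 2 lowest genes of each list in EDL at 8.5 days, OSKM and the 5 genes most like Ppia; 1 listed gene is not reported here. Fkbp9, Rcan1, Gapdh, Rps18, E030024N20Rik and the genes ranked by Spearman were named after their values were seen.

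Deviations of same-numbered EDL and SOL libraries from their group means correlated at 0.171 to 0.447 in all 6 pairs over 15414 genes. Those of Cre+ and Cre- libraries correlated at -0.170 to 0.0584, so numbers paired the muscles but not the genotypes. The labels do not name the mouse, so a block by mouse means EDL and SOL libraries of equal number. The tests were tried on simulated data, with known changes placed in the Cre+ EDL libraries of 8.5 days. In EDL at 8.5 days edgeR called 64 of 100 genes changed by 1 on the log2 scale and 93 of 100 changed by 2. In the difference between muscles it called 26 of 100 and 87 of 100.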

Additional observations from a re-analysis of the deposited data

How the results depend on the processing

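The rise of Ppia in EDL at 8.5 days kept its direction under all alternatives. It lost its call with edgeR on the 4 libraries of the comparison (0.82, adjusted p = 0.0577) and ran from 0.57 to 1.01 when a library was left out. The count of called members there was 0 with edgeR on 4 libraries, 1 with library size alone, and 0 to 2 when a library was left out. Ppia in EDL over SOL of Cre- mice turned to -0.056 with library size alone. In Cre+ mice it passed with DESeq2 (0.61), without the low count filter (0.61), with all 24 libraries (0.58) and with the mouse as replicate block (0.59), and ran from 0.38 to 0.81 when a library was left out. Called members between muscles in Cre- mice were 1 with the adjusted p alone and 0 to 1 when a library was left out. In Cre+ mice they were 2 with DESeq2, without the filter and with the mouse as block, 0 with at least 10 counts in every library and with the replicate number as block, and 0 to 1 when a library was left out. The log2 ratio of Ppia stayed at 0.50 with the mouse as replicate block, where the smallest possible exact permutation p was above 0.05, and was 0.52 with the same limit in the libraries of 8.5 days alone, an alternative chosen after seeing the data. The cause of these changes was not tested.

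Genes that did not pass changed sign near 0. With library size alone Fkbp11 was at 0.0127, Hsp90aa1 at 0.18, Pin4 at 0.00372, Prpf19 at 0.0151 and Slc16a1 at 0.00819, and Hsp90aa1 was at 0.00346 and 0.00929 with DESeq2 and edgeR on 4 libraries and at 0.00164 without the filter. With a library left out, the ranges were -0.40 to 0.10 for Fkbp11, -0.37 to 0.00470 for Fkbp1a, -0.11 to 0.0897 for Hsp90aa1, -0.0516 to 0.12 for Ptpa, -0.0585 to 0.77 for Serpinh1, -0.37 to 0.0696 for Slc16a1 and -0.12 to 0.39 for Xab2.

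The replicate number as a block over all groups changed no call of Ppia or Ppif in EDL at 8.5 days (0.81 and -0.65). With library size alone the median log2 fold change over all genes in EDL at 2.5 days was 0.28 in place of -0.05, and Ppia was at 3.24. With 2 libraries a group, differences under the spread were not detectable.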
